A study of Mus musculus with 4 samples.

Results

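The enzymes that turn arachidonic acid into prostaglandins, thromboxane and leukotrienes were followed through 10 genes: Pla2g4a, Ptgs1, Ptgs2, Ptges, Hpgds, Tbxas1, Alox5, Alox5ap, Ltc4s and Lta4h. They were taken from the deposited expression table by gene name, all 10 were found among its 34745 genes, and all 10 were among the 12590 genes that passed the filter on low counts. RNA was sequenced from wt C57BL/6 bone marrow derived monocytes/macrophages (BMMs) of male mice aged 8 weeks. The cells spent 12 h without FBS and then 24 h in complete medium with RANKL at 100 ng/mL, the cytokine that drives macrophages towards osteoclasts. One group also received dimethyl itaconate (DI), a membrane permeable derivative of the macrophage metabolite itaconate (RANKL+DI, 2 libraries), and the other received DMSO as vehicle (RANKL+Veh, 2 libraries). The DI dose reads 20 mM in the sample labels and 20 μM in the study's methods. Both groups received RANKL, so the comparison asks what DI added to RANKL and not what RANKL did.

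Cytosolic phospholipase A2 cuts arachidonic acid out of membrane phospholipids. The cyclooxygenases COX-1 and COX-2 oxidise it to the prostaglandin H2 intermediate, from which terminal synthases make prostaglandin E2, prostaglandin D2 or thromboxane A2. In the other branch 5-lipoxygenase, which needs the membrane protein FLAP to receive its substrate, makes leukotriene A4, and this is then hydrolysed to leukotriene B4 or joined to glutathione as leukotriene C4. Macrophages use both branches, and prostaglandin E2 is a known regulator of osteoclast formation and bone turnover.

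Levels were read from CPM, counts scaled to the size of each library with TMM factors, and differences are log2 fold changes of RANKL+DI over RANKL+Veh with their standard error (SE), tested with edgeR and adjusted over all 12590 tested genes. A gene is said to have risen or fallen only at an adjusted p under 0.05. Of all tested genes 14.8% passed that threshold, 7.14% upwards and 7.7% downwards. The labels do not say whether the 2 libraries of a group came from separate cultures or animals, so the p-values measure only the spread between these libraries, which may be technical.

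With DI, 4 of the 10 genes rose and none fell, where 7.14% of all tested genes rose and 7.7% fell. They were Alox5ap, which encodes FLAP, Ptgs1, which encodes COX-1, Pla2g4a, which encodes cytosolic phospholipase A2, and Tbxas1, which encodes thromboxane A synthase. The rise was 1.92-fold for Alox5ap, 1.505-fold for Ptgs1 and 1.26-fold for both Pla2g4a and Tbxas1. The other 6 genes did not pass, although their log2 fold changes were above 0 too. The median log2 fold change was 0.30 over the 10 genes and 0.00 over all tested genes. In 9 of the 10 genes both RANKL+DI libraries lay above both RANKL+Veh libraries, an arrangement found in 29% of all tested genes, while the reverse arrangement was found in 29.6%. In a bulk culture, more cells of a type and more RNA per cell cannot be told apart, and this holds for every rise given here.

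**Figure D1:**
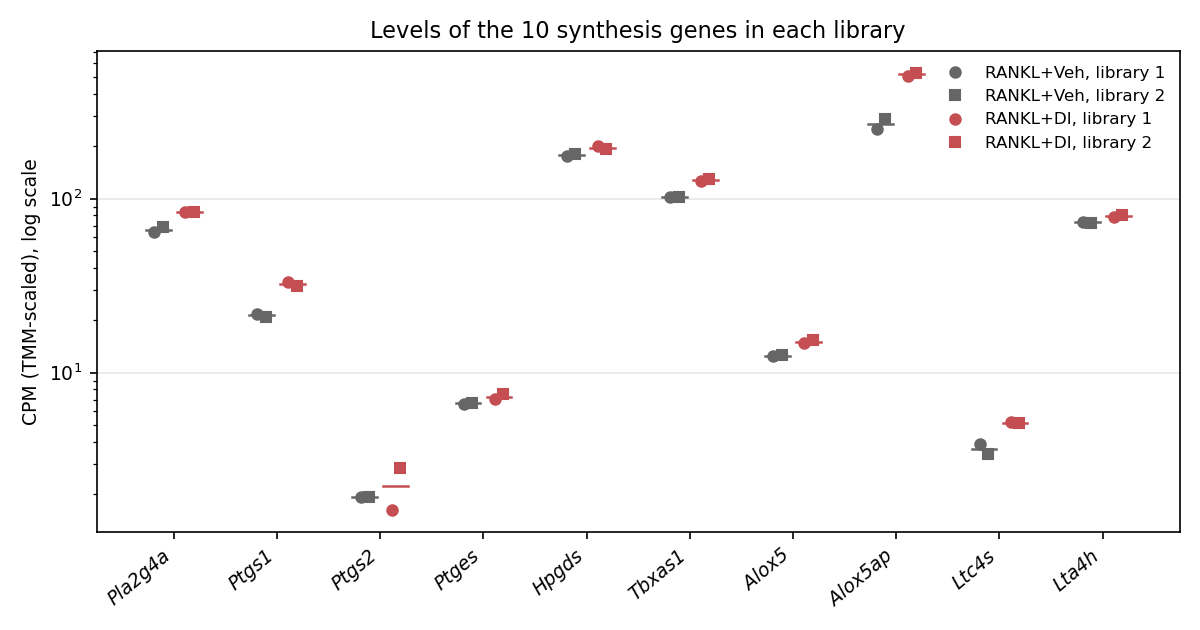
TMM-scaled CPM (log axis) of each gene in each library, with grey marks for RANKL+Veh, red marks for RANKL+DI, circles and squares for libraries 1 and 2, and a line at each group mean. Alox5ap shows the widest gap between groups, from 269 to 518 CPM, and Ptgs2 is the gene whose groups overlap.

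The libraries held between 16085692 and 19403480 counts, and a floor of 3 counts per library was worth 0.160 to 0.180 CPM. Markers of macrophages were present in every library. Beside 7.14% of all tested genes that rose and 7.7% that fell, 5 of these 7 markers rose and 1, Fcgr1, fell. Itgam, among those that rose, also has a second, overlapping gene model, and only the first was used. The summed levels of the macrophage markers were 22173 to 23037 CPM in RANKL+Veh and 28383 to 29194 CPM in RANKL+DI (1.27-fold). Lyz2, which rose, made up most of these sums, at 18289 and 17630 CPM with vehicle and 22772 and 23786 CPM with DI. Of 9 osteoclast markers 7 were tested, 5 of them fell and 1 rose, and their sums were 715 to 738 CPM against 678 to 690 CPM. The gene that rose, Atp6v0d2, made up most of these sums, and without it they were 297 to 311 CPM against 169 to 181 CPM. Megakaryocyte and platelet markers summed to 88.0 to 90.0 CPM against 116 to 118 CPM. Markers of mast cells and basophils summed to 0.533 to 1.57 CPM over all 4 libraries. Sums of neutrophil markers were 9.39 to 11.0 CPM against 10.7 to 11.2 CPM. Of these markers Ly6g and Retnlg were at 0 in every library. S100a8, S100a9, Ltf and Ngp passed the filter on low counts, and none of them rose or fell. Sums of eosinophil markers were 8.95 to 9.82 CPM against 8.56 to 9.33 CPM, and those of stromal markers 43.1 to 50.01 CPM against 39.6 to 42.2 CPM. B cell markers stayed at 0.600 CPM or below and T and NK cell markers at 0.117 CPM or below. The part of these shifts in the results on the synthesis genes was not tested.

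For the 3 risen genes that have an entry in the RefSeq promoter table and for Ptgs2, the 250 bases before the transcript start are printed in the direction of transcription, to set the start regions of the risen genes beside that of the inducible cyclooxygenase. Capitals mark matches, on either strand, to any of 7 motifs: the TATA box TATAAA, the GC box GGGCGG, the E-box CACGTG, the AP-1 site TGANTCA, the antioxidant response element core TGACNNNGC, the PU.1 core GAGGAA, and the NF-kB site. Coordinates and letters are those of RefSeq on GRCm38.p6.
Ptgs1, chr2:36230176-36230425, plus strand: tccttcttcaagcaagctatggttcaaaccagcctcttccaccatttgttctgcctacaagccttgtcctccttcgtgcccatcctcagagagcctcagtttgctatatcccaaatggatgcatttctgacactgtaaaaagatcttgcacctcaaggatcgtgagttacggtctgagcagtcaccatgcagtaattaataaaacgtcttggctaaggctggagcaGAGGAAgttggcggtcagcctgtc
Pla2g4a, chr1:149961291-149961540, minus strand: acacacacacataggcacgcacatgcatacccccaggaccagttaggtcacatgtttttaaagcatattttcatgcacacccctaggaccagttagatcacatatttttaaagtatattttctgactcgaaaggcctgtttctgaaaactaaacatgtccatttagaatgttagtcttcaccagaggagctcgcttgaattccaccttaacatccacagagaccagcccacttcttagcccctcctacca
Tbxas1, chr6:38918736-38918985, plus strand: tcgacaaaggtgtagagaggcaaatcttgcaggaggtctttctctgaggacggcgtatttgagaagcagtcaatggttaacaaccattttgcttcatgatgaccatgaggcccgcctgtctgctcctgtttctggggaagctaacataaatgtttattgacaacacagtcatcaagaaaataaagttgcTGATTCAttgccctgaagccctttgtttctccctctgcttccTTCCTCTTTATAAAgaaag
Ptgs2, chr1:150099781-150100030, plus strand: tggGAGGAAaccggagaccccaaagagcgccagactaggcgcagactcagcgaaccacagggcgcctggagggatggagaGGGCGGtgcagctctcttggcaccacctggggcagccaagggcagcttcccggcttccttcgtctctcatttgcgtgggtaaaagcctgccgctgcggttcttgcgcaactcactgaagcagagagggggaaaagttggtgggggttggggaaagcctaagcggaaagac

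The Ptgs1 window held 1 match, a PU.1 core that begins 24 bases before the start. In the Tbxas1 window an AP-1 site began 61 bases before the start, followed by a PU.1 core on the other strand at 19 bases and by a TATA box read on both strands, at 13 and 11 bases, in overlapping letters. The Ptgs2 window held a PU.1 core at 247 bases and a GC box at 170 bases, and the Pla2g4a window printed held no match. A second RefSeq start of Pla2g4a, at chr1:149922440-149922689, held a TATA box on the other strand. Among all 32851 promoters of the table the same 250 bases held the PU.1 core in 23.3%, the GC box in 32.7%, the TATA box in 12.4%, the antioxidant response element core in 10.2%, the NF-kB site in 7.25%, the AP-1 site in 6.75% and the E-box in 6.02%. The GC content was 61.6% for Ptgs2 with 13 CpG dinucleotides, 48.0% with 5 for Ptgs1, 43.6% with 4 for Tbxas1 and 43.2% with 3 for Pla2g4a, beside medians of 52.4% and 6 over the table. Over all 9 genes with an entry, 10 windows in all, these letters for the E-box, the antioxidant response element core and the NF-kB site were in none. These matches are a description of the letters and no measure of binding.

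Release of arachidonic acid was read from Pla2g4a (chromosome 1, 149829618 to 149961290 in the deposited table, minus strand). Its level was 64.1 and 68.6 CPM in the RANKL+Veh libraries and 84.1 and 83.5 CPM in the RANKL+DI libraries. Both libraries with DI were higher than both without it, and they lay closer to each other than the RANKL+Veh pair did. The log2 fold change was 0.34 ± 0.060 (SE), 1.26-fold with a 95% interval of 1.14 to 1.40, at an edgeR adjusted p of 0.0171. This call was lost in 4 of the 13 alternative analyses, at adjusted p-values of 0.0503 to 0.0637. Those were both limma analyses of the authors' FPKM, where the log2 fold change was 0.21 or 0.23, and the edgeR fits without RANKL+DI library 1 and without RANKL+Veh library 1.

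Ptgs1 (chromosome 2, 36230426 to 36252272, plus strand), whose start region is printed above, encodes the cyclooxygenase that most cells carry at a steady level. It measured 21.7 and 20.95 CPM with vehicle and 33.0 and 31.3 CPM with DI. The groups were separated by a gap of several times the spread within either of them. Its log2 fold change was 0.59 ± 0.077 (SE), or 1.505-fold (95% interval 1.32 to 1.72), at an edgeR adjusted p of 0.0065, and it was called in all 13 alternatives.

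Ptgs2 (chromosome 1, 150100031 to 150108227) encodes COX-2, the isoform that inflammatory signals induce. Its counts were low, 36 and 32 with vehicle against 28 and 53 with DI. One RANKL+DI library was thus below both vehicle libraries and the other above them, so the groups overlapped. The log2 fold change was 0.22 ± 0.32 (SE), 1.16-fold with a 95% interval of 0.674 to 2.01, at an edgeR adjusted p of 0.703. The interval covers lower as well as higher levels, so these libraries do not show a difference and do not show its absence. Without RANKL+DI library 2 the log2 fold change was -0.24.

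Per gene length, on the FPKM the authors deposited, Ptgs1 measured 3.80 and 3.66 with vehicle and 5.35 and 5.10 with DI, whereas Ptgs2 measured 0.427 and 0.424 against 0.334 and 0.582. COX-1 transcripts were therefore the larger part of the pair in every library. Ptgs1 made up 89.9% and 89.6% of their summed FPKM in RANKL+Veh and 94.1% and 89.8% in RANKL+DI, and these shares overlapped.

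**Figure D2:**
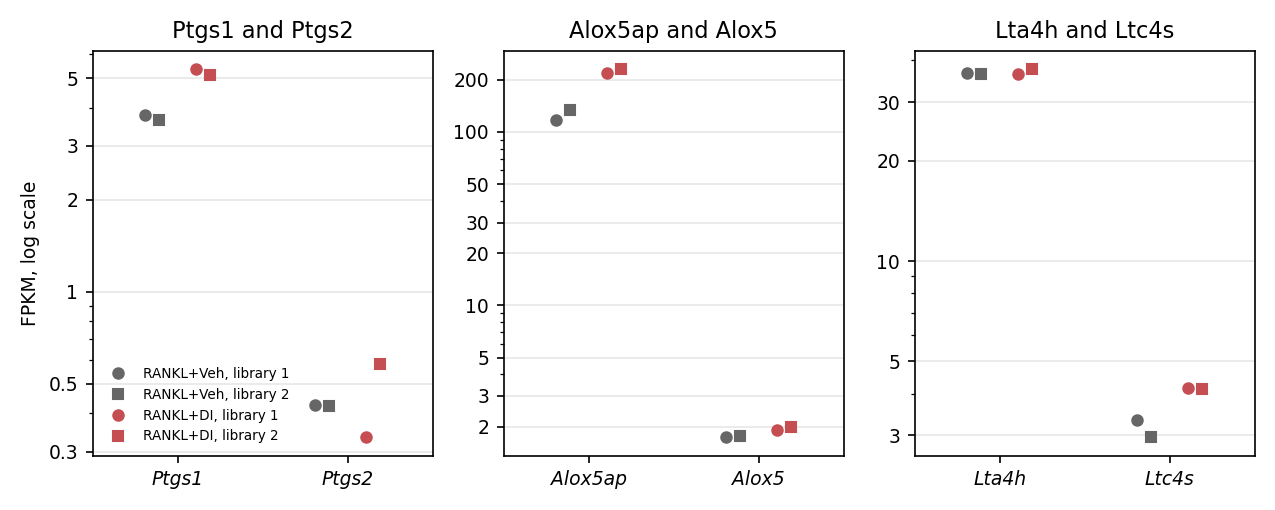
FPKM (log axes, each panel with its own range) of 3 pairs of partner genes in each library, grey for RANKL+Veh and red for RANKL+DI, circles for library 1 and squares for library 2. Ptgs1 and Alox5ap are higher in both RANKL+DI libraries, while the FPKM of Lta4h hardly differs between groups.

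Of the terminal prostanoid synthases, Tbxas1 rose, and Hpgds and Ptges did not pass the test. Tbxas1 (chromosome 6, 38875404 to 39084585) measured 102.3 and 102.2 CPM with vehicle and 126.8 and 130.0 CPM with DI. The groups stood apart by far more than either pair's spread. Its log2 fold change was 0.33 ± 0.045 (SE), 1.26-fold (95% interval 1.16 to 1.35), at an edgeR adjusted p of 0.0072, and it was called in all 13 alternatives. The RefSeq start whose window is printed above lies inside the interval that the deposited table gives for this gene.

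Hpgds (chromosome 6, 65117293 to 65144908) encodes the hematopoietic prostaglandin D synthase. It was the second most abundant of the 10 genes in CPM, at 176 and 179 with vehicle and 199 and 192 with DI. Both DI libraries were higher, but the difference was small, 1.10-fold with a 95% interval of 1.03 to 1.18, and the edgeR adjusted p was 0.0801. It passed in none of the 13 alternatives. Mast cells are the best known source of this enzyme. Of the 10 listed markers of mast cells and basophils, Tpsb2, Mcpt4, Cma1, Fcer1a, Ms4a2 and Mcpt8 were at 0 in every library. Gata2 passed the filter on low counts, with 18 and 11 counts with vehicle and 22 and 7 with DI. Kit had 6 and 8 counts against 5 and 0, Hdc 0 and 2 against 0 and 3, and Cpa3 0 and 1 against 0 and 0.

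Ptges (chromosome 2, 30889471 to 30929863) encodes the inducible microsomal prostaglandin E synthase. Its level was 6.60 and 6.72 CPM with vehicle and 7.05 and 7.52 CPM with DI. This was 1.09-fold, with a 95% interval of 0.878 to 1.36 and an edgeR adjusted p of 0.562. On the authors' FPKM the groups overlapped, at 1.30 and 1.33 against 1.29 and 1.38.

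Platelets and their precursors also carry Ptgs1 and Tbxas1. Of the 8 markers listed for them only Pf4 and Vwf passed the filter on low counts, Gp9 and Gp5 were among those at 0 in every library, and Gp1bb, Ppbp and Itga2b had at most 5 counts. Pf4, a platelet chemokine, measured 32.2 and 32.5 CPM with vehicle and 57.2 and 57.4 CPM with DI, a log2 fold change of 0.83 ± 0.062 (SE) at an edgeR adjusted p of 0.0013. Vwf, which encodes von Willebrand factor, measured 57.3 and 55.0 CPM against 60.5 and 58.3 CPM (log2 fold change 0.08, edgeR adjusted p = 0.447). Without Pf4 the marker sum was 55.5 to 57.8 CPM with vehicle and 58.7 to 61.0 CPM with DI, nearly all of it from Vwf. The part of platelets and their precursors in the rises of Ptgs1 and Tbxas1 was not tested.

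Alox5ap (chromosome 5, 149264767 to 149288153) was the most abundant of the 10 genes and the one with the largest change. FLAP, its product, presents arachidonic acid to 5-lipoxygenase. It measured 251.8 and 286.3 CPM with vehicle and 505.7 and 529.5 CPM with DI. Even the lower DI library was well above the higher vehicle library. The log2 fold change was 0.94 ± 0.067 (SE), 1.92-fold with a 95% interval of 1.72 to 2.16, at an edgeR adjusted p of 0.0011. In the 13 alternatives the log2 fold change lay between 0.84 and 1.04 and the gene was called each time. The long noncoding gene Gm19719 overlaps 13.3% of its exons on the opposite strand and had 26.0 counts on average, against 4691 to 9929 for Alox5ap.

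Alox5 (chromosome 6, 116410077 to 116461178), which encodes 5-lipoxygenase itself, was far lower, at 12.4 and 12.5 CPM with vehicle and 14.7 and 15.3 CPM with DI. The groups did not overlap. The difference was 1.205-fold (95% interval 1.02 to 1.42) and its edgeR adjusted p was 0.133, and no alternative called it. The FPKM ratio of Alox5ap to Alox5 was 67.5 and 75.9 in the RANKL+Veh libraries and 114 and 115 in the RANKL+DI libraries. FLAP transcripts thus outnumbered those of its partner enzyme per length in every library, and by more in both libraries with DI.

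The enzymes after leukotriene A4 did not pass the test. Ltc4s (chromosome 11, 50236469 to 50238616) encodes leukotriene C4 synthase, and its counts were 72 and 57 with vehicle and 89 and 96 with DI. Both DI libraries were higher, by 1.41-fold with a 95% interval of 1.07 to 1.86, at an edgeR adjusted p of 0.102. Across the 13 alternatives the adjusted p ran from 0.0501 to 0.396. The long noncoding gene Gm26542 overlaps 26.4% of the exons of Ltc4s on the opposite strand and had 3.0 counts on average. How strand was used in counting is not given in the sources used here.

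Lta4h (chromosome 10, 93453396 to 93484896) encodes leukotriene A4 hydrolase, which makes leukotriene B4. It measured 73.4 and 72.5 CPM with vehicle and 78.2 and 80.5 CPM with DI. The pairs did not overlap, yet the difference was only 1.09-fold, with a 95% interval of 0.993 to 1.19 and an edgeR adjusted p of 0.198. On FPKM the groups overlapped, at 36.8 and 36.3 against 36.4 and 37.7. The FPKM ratio of Lta4h to Ltc4s was 11.0 and 12.3 with vehicle and 8.74 and 9.12 with DI, lower in both DI libraries.

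**Figure D3:**
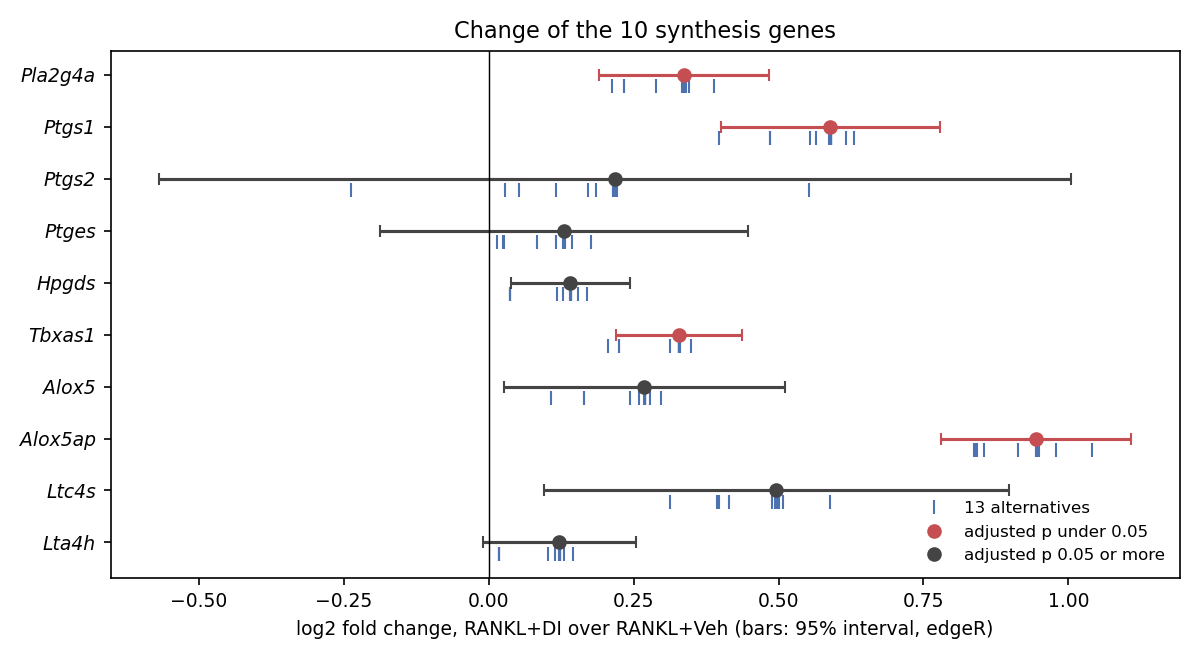
Log2 fold change of each of the 10 genes, RANKL+DI over RANKL+Veh, with the 95% interval from edgeR (red where the adjusted p is under 0.05, grey otherwise) and blue ticks for the 13 alternative analyses. All 10 points lie above 0, only the intervals of Ptgs2, Ptges and Lta4h reach below 0, and of the blue ticks 1, for Ptgs2, does.

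Added over the 10 genes, the level was 734 ± 28.4 CPM (SD, n = 2) with vehicle and 1067 ± 15.7 CPM (SD, n = 2) with DI, a sum that was not tested, and Alox5ap alone made up 74.7% of that difference. Its share of the summed FPKM was 56.6% and 59.7% with vehicle and 69.4% and 70.2% with DI. By group means of FPKM with vehicle, the order was Alox5ap at 125, Lta4h at 36.6, Hpgds at 23.9, Tbxas1 at 9.88, Pla2g4a at 9.04, Ptgs1 at 3.73, Ltc4s at 3.15, Alox5 at 1.74, Ptges at 1.31 and Ptgs2 at 0.425. Over the 4 libraries Tbxas1 overlapped with Pla2g4a, and Ptgs1 overlapped with Ltc4s, while the other neighbours in this order did not. The ranks among all tested genes ran from percentile 98.6 for Alox5ap to percentile 11.2 for Ptgs2. The order depends on the gene length used. The authors' FPKM imply 10728 bases for Tbxas1, whose longest coding transcript in GENCODE M21 has 1990, and 7694 bases for Hpgds, against 3476. Per kilobase of the longest coding transcript Tbxas1 and Hpgds came before Lta4h, and the other 7 genes kept their places.

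The number of calls was also taken under another scaling. With library size only, the median of all tested genes moved to -0.10 and the calls over all genes were 548 higher and 1932 lower, against 899 and 969 with TMM factors, while the number of synthesis genes called stayed at 4 and their median was 0.20. Of the 10 genes, 3 were called in every alternative and 6 in none.

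The wider pathway was read from 66 further gene symbols in 7 lists by role, of which 65 were in the table and 40 were tested. There, 10 genes rose and 0 fell, beside the shares of 7.14% and 7.7% among all tested genes, and the median log2 fold change was 0.15. The 30 other tested genes did not pass. Of the 25 genes left untested 8 were at 0 in every library, and the highest count of any of them was 11.

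Beside 7.14% of all tested genes, 1 of 14 tested genes for the release and re-esterification of arachidonic acid rose. This was Pla2g7, the secreted enzyme that breaks down platelet activating factor and oxidised phospholipids, which is not itself an arachidonate-selective phospholipase. It measured 533 and 507 CPM with vehicle and 1091 and 1074 CPM with DI, a log2 fold change of 1.06 ± 0.039 (SE) at an edgeR adjusted p of 0.0003. Both DI libraries were about 2-fold above both vehicle libraries. The long noncoding gene 1700071M16Rik overlaps 11.0% of its exons on the opposite strand, at 99.5 counts on average. None of the 4 tested genes for other terminal prostanoid synthases passed, and none of the 6 listed lipoxygenases besides Alox5 was tested. Alox15, which encodes the 12/15-lipoxygenase, had 2 and 2 counts with vehicle and 8 and 9 with DI. Ptgds, the other prostaglandin D synthase, was at 0 in every library.

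Genes that act after leukotriene C4 synthesis or beside it rose in 3 of 6 tested cases, against 7.14% of all tested genes. Mgst2, a microsomal glutathione transferase that can also make leukotriene C4, had 69 and 67 counts with vehicle and 140 and 178 with DI (2.29-fold, edgeR adjusted p = 0.0063). Abcc1 encodes MRP1, which exports leukotriene C4 and glutathione conjugates in general, and it measured 553 and 558 CPM against 942 and 914 CPM (1.67-fold, edgeR adjusted p = 0.0004). Both were higher in each DI library and were called in all 13 alternatives. Ggt5, which trims leukotriene C4 to leukotriene D4, had 22 and 5 counts with vehicle and 56 and 51 with DI. Its vehicle libraries lay far apart, at 1.18 and 0.300 CPM, the edgeR adjusted p was 0.0491, and 7 of the 12 alternatives that gave a value called it. Without RANKL+DI library 1, RANKL+DI library 2 or RANKL+Veh library 2 the call was lost, at edgeR adjusted p-values of 0.0654 to 0.109.

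Transport and breakdown genes rose in 4 of 8 tested cases, against 7.14% of all tested genes. Ptgr1, which inactivates leukotriene B4 and reduces prostaglandin derivatives, measured 82.6 and 80.8 CPM with vehicle and 186 and 186 CPM with DI, a log2 fold change of 1.19 ± 0.042 (SE) at an edgeR adjusted p of 0.0003. Abcc4, which encodes the prostaglandin exporter MRP4, measured 41.2 and 46.5 CPM against 72.5 and 66.8 CPM (1.59-fold, edgeR adjusted p = 0.0060). These 2 were called in all 13 alternatives. Cbr1, a carbonyl reductase that acts on prostaglandin E2 among many substrates, rose 1.29-fold at an edgeR adjusted p of 0.0256 and was called in 8 of 13 alternatives. For Zadh2, a prostaglandin reductase, the rise was 1.22-fold at an edgeR adjusted p of 0.0299, called in 5 of 13. Both calls were lost with library size only and whichever library was left out, at edgeR adjusted p-values of 0.0551 to 0.0991. Hpgd, the main prostaglandin-inactivating dehydrogenase, had 8 or 9 counts in each library and was not tested.

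**Figure D4:**
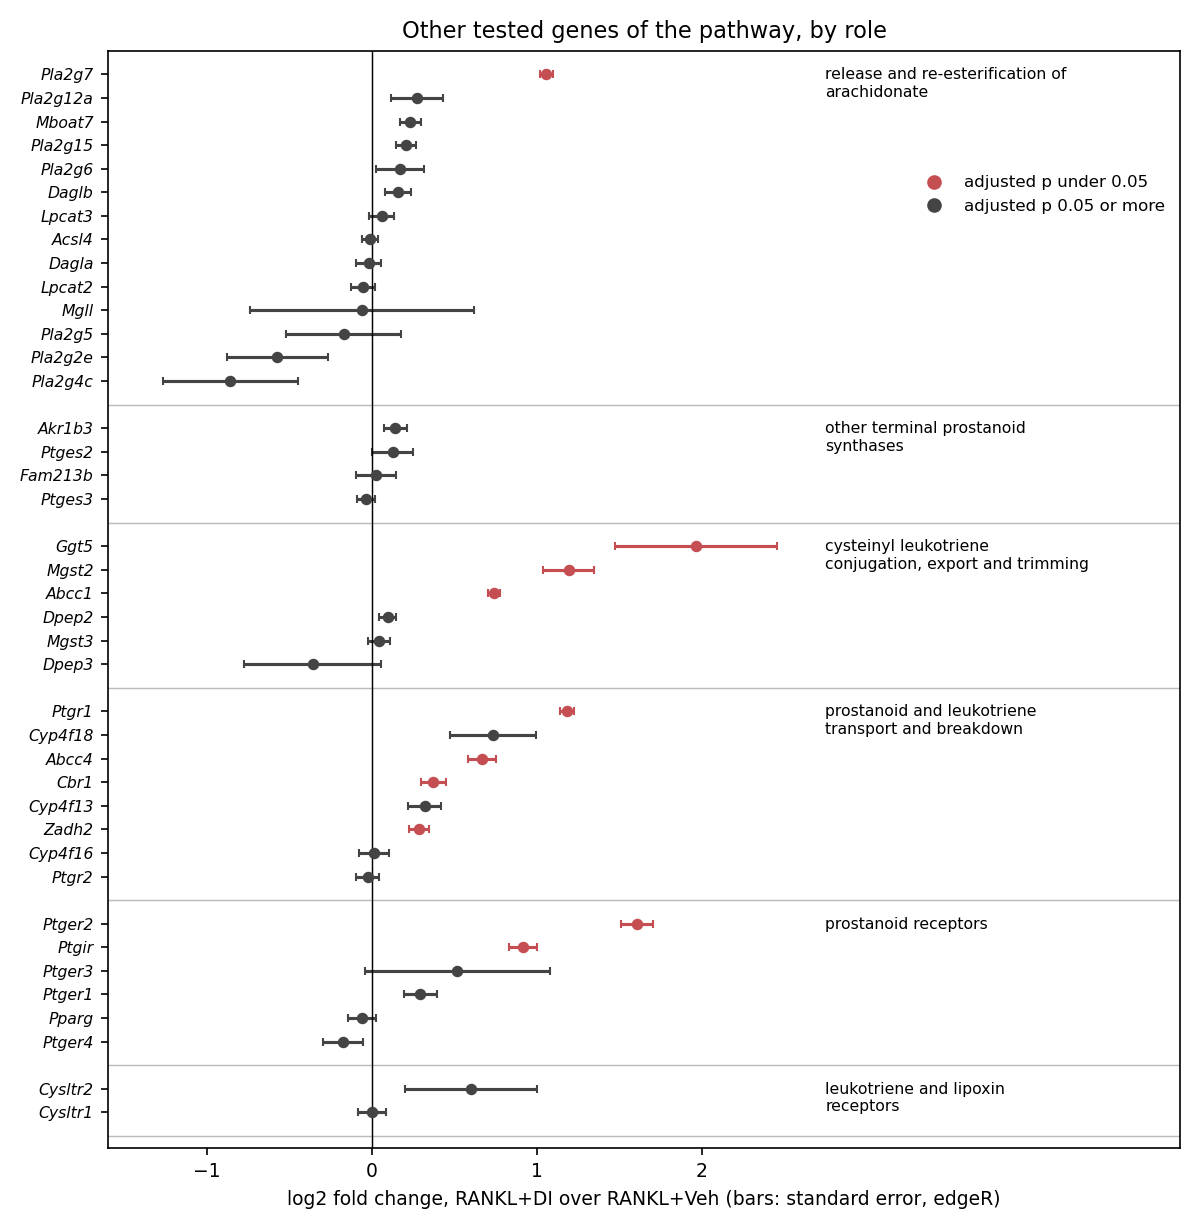
Log2 fold change with its standard error (edgeR) for the 40 tested genes of the wider pathway, grouped by role, RANKL+DI over RANKL+Veh. The 10 red points, with an adjusted p under 0.05, all lie above 0, and 2 of the 6 roles shown hold none of them.

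The receptors decide which of these lipids a cell can sense. Of 16 listed receptor genes 8 were tested, and 4 were at 0 in every library: Ptgfr, Tbxa2r, Ptgdr and Oxgr1. The first 2 encode the receptors for prostaglandin F2 alpha and thromboxane A2, and Ptgdr encodes 1 of the prostaglandin D2 receptors. Ptgdr2, which encodes another, had 1 and 0 counts with vehicle and 1 and 0 with DI. A count of 0 allows up to 0.160 to 0.180 CPM in these libraries. The leukotriene B4 receptor gene Ltb4r1 had 1 and 3 counts with vehicle and 3 and 2 with DI, at or under the floor of 3.

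Ptger2 and Ptgir rose, beside 7.14% of all tested genes, and the other 6 tested receptor genes did not pass. Ptger2 encodes EP2, a prostaglandin E2 receptor that raises cyclic AMP. It measured 10.3 and 9.61 CPM with vehicle and 31.4 and 29.3 CPM with DI, a log2 fold change of 1.61 ± 0.096 (SE), 3.04-fold, at an edgeR adjusted p of 0.0006. Ptgir encodes the prostacyclin receptor, and its levels were 25.6 and 29.2 CPM against 53.0 and 50.2 CPM, a log2 fold change of 0.91 ± 0.086 (SE) at an edgeR adjusted p of 0.0025. Both were called in all 13 alternatives and neither pair of groups overlapped.

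Ptger4, which encodes EP4, the other prostaglandin E2 receptor coupled to cyclic AMP, measured 11.3 and 13.1 CPM with vehicle and 10.7 and 10.9 CPM with DI (log2 fold change -0.17 ± 0.12 (SE), edgeR adjusted p = 0.392). Cysltr1, the receptor for leukotriene D4, measured 33.6 and 31.8 CPM against 30.8 and 34.6 CPM, with a log2 fold change of -0.00 ± 0.083 (SE). Its groups overlapped, and its 95% interval ran from -0.21 to 0.20. Pparg, a nuclear receptor that prostaglandin D2 derivatives can bind, measured 23.5 and 23.3 CPM against 21.6 and 23.3 CPM (edgeR adjusted p = 0.686).

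The prostaglandin E2 receptor gene Ptger1 did not pass the test, and its level is left out because its reads cannot be assigned to it with certainty. Ptger3, with 5 and 14 counts against 13 and 15, and Cysltr2, with 16 and 8 against 17 and 20, did not pass, at edgeR adjusted p-values of 0.594 and 0.378.

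**Figure D5:**
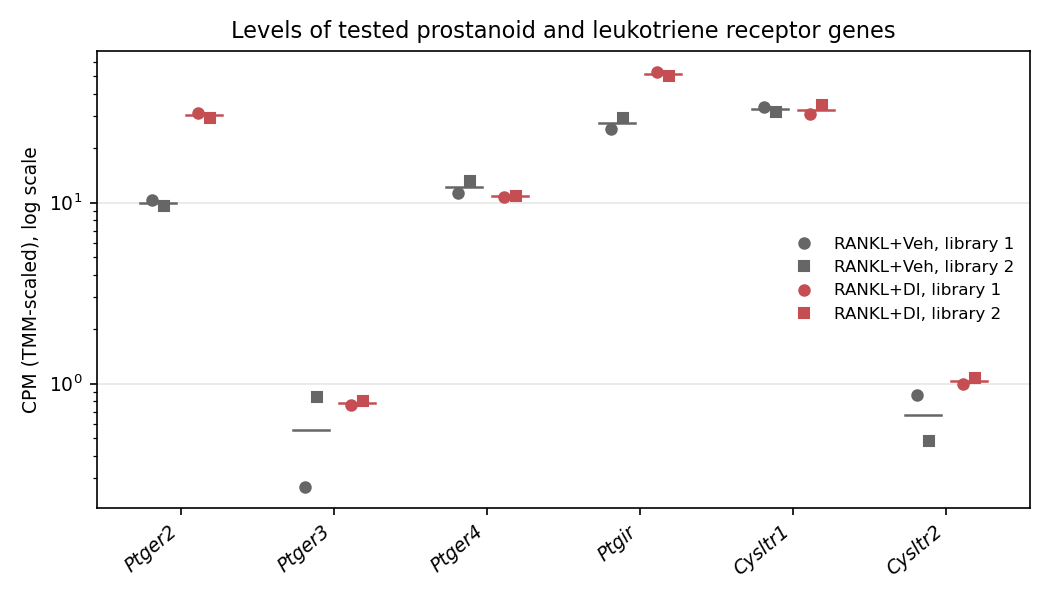
TMM-scaled CPM (log axis) of 6 tested membrane receptor genes, Ptger1 left out, in each library, grey for RANKL+Veh and red for RANKL+DI, circles for library 1 and squares for library 2, with lines at the group means. Ptger2 and Ptgir are higher in both RANKL+DI libraries, and Cysltr1 shows the same level in both groups within its spread.

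The authors' annotation assigns 78 further genes to the KEGG pathway of arachidonic acid metabolism, of which 18 were tested, 3 rose and 0 fell, beside 7.14% and 7.7% of all tested genes. Both limma analyses of FPKM called 1 of the 18 lower, the secreted phospholipase gene Pla2g2e, which had 26 and 21 counts with vehicle and 16 and 16 with DI and an edgeR adjusted p of 0.273. Ggt5 and Cbr1 are described above. The third was Cbr3, a carbonyl reductase related to Cbr1, at 35.4 and 35.8 CPM with vehicle and 81.0 and 84.4 CPM with DI, a log2 fold change of 1.22 ± 0.061 (SE) at an edgeR adjusted p of 0.0005. It was the only gene to pass among the 6 tested KEGG genes that are in none of the lists above. Without RANKL+DI library 2, or without RANKL+Veh library 2, the number called was 1.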

How the data were processed

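For each of the 4 libraries, the authors deposited read counts by gene that had not been normalized. They also deposited FPKM values, which scale those counts by gene length and library total, and a second table that repeats both and adds KEGG pathways. The submitters' processing notes name the builds GRCm38 and mm10. The aligner, the counting program, the annotation release and the use of strand are not given in the sources used here.

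Samples were grouped by title. The counts were tested with edgeR 4.0.16 under R 4.3.3 (TMM factors, default filter on low counts, quasi-likelihood test, Benjamini-Hochberg adjustment over 12590 genes), with the condition as the only term and 2 residual degrees of freedom. In this test the spread of each gene is moderated with that of all tested genes. Its p-values and intervals thus use more than 2 degrees of freedom. Depth was 16085692 to 19403480 counts per library, and floors of 3 counts cover counting error only. The 13 alternatives were DESeq2 size factors, library size only, no filter, a minimum count of 10 throughout, DESeq2's Wald test (version 1.42.0), limma-voom (limma 3.58.1), limma on log2(FPKM + 1) and log2(FPKM + 0.01), the replicate number as a block, and each library left out. Steps were tested on simulated data.

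The 10 genes, the lists and the tests were chosen with earlier results of these data known. The genes named are these 10, every list gene with an adjusted p under 0.05, the tested receptor genes, and KEGG genes outside the lists with an adjusted p under 0.05. Alox15, Ptgds, Hpgd, Pla2g2e, Gpx1, the untested receptor genes and single markers were named besides, after their values were seen. Positions are those of the deposited table, and those of 8 of the 10 genes are the same in GENCODE M21. Exon overlaps were taken from that annotation, and near-identical copies were searched with blastn 2.17.0, which among the 10 genes found only Ltc4s with Gm26542, an overlap on opposite strands. Some items the steps above cover are not reported here. The promoter windows come from RefSeq.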

Additional observations from a re-analysis of the deposited data

How the results depend on the processing

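Over the 13 alternatives 3 to 4 of the 10 synthesis genes and 7 to 10 of the pathway genes were called. With the replicate block the counts were 4 synthesis genes, 8 pathway genes and 2 KEGG genes. The block ended the calls of Ggt5 (edgeR adjusted p = 0.0573) and Zadh2 (edgeR adjusted p = 0.0612) and changed no other call among the 27 genes named singly. The deviations of the libraries numbered 1 from their group means had a correlation of -0.030 over genes. This value cannot show whether libraries with the same number share an animal or a culture, and the labels do not say. The 3 KEGG calls did not all hold when 1 library was left out. The KEGG gene Gpx1, which did not pass the main test, was called in 1 of the 13 alternatives. Its RANKL+DI libraries lay far apart, at 3117 and 8520 counts, against 4912 and 3496 with vehicle. Of 346 pairs of a gene and an alternative, 317 kept their direction and their side of the threshold and 29 did not. Directions turned for 3 genes, none of which passed the test. With a library left out, the log2 fold change ranged from -0.24 to 0.55 for Ptgs2, from -0.11 to 1.52 for Ptger3 and from -0.085 to 0.082 for Cysltr1, which stood at 0.000805 with DESeq2 size factors and 0.000813 in the DESeq2 Wald test. The cause was not tested. In these fits the lone library of a group is assumed to vary like the other group. With limma on log2(FPKM + 1), 536 of all genes were called higher and 1674 lower. Both FPKM analyses called Pla2g2e lower. Counts under the floor of 3 per library cannot be told from 0 at this depth.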
